A study of Mus musculus with 8 samples.

Results

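A set of 100 genes was described that stood higher in E-cadLO than in E-cadHI tumor cells in each of 4 mice, out of 10570 protein-coding genes that could have entered it. The genes were selected on the measured values themselves. In each mouse the ratio of E-cadLO to E-cadHI was computed as log2((E-cadLO CPM + 0.5)/(E-cadHI CPM + 0.5)), where CPM is the count of a gene scaled to the total count of its library (counts per 1e6), and the 100 genes whose smallest of the 4 ratios was highest were taken. A mean E-cadLO level of at least 5 CPM was required, and 146 genes whose symbols begin with one of 18 chosen letter strings (Cyp, Klk, Itg, Fos, Cts, H2-, Col, Cdh and others) were left out beforehand. That the genes were higher in E-cadLO cells is therefore the way they were chosen and not a result.

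The cells came from mammary tumors driven by the polyoma middle T antigen (PyMT), in which E-cadherin is fused to the fluorescent protein mCFP. One line of organoids, enriched for growth in the brain by serial intracranial transplantation, was injected into the brain of female FVB mice labelled wild type, and the breast cancer brain metastases (BCBM) that formed were sorted by mCFP into E-cadHI cells, with high E-cadherin, and E-cadLO cells, with little mCFP signal. Mice 57, 58, 67 and 70 each gave 1 bulk mRNA library of each population, so there are 4 libraries per group and 8 in all, and the labels name no treatment. Within a group each library is a separate animal, while all animals received the same organoid line, and p-values measure only the spread between these samples. The FVB hosts kept their own brain and immune cells, among which the metastases grew. The gates drawn in the study, which would remove host cells, keep single cells that exclude the dead-cell dye TO-PRO, carry the nuclear tumor label H2B-Dendra2 and are low in the host label tdTomato, before the cells are divided by mCFP. The labels of the 8 libraries name neither H2B-Dendra2 nor tdTomato. In bulk samples, fewer cells of a type and less RNA per cell cannot be told apart.

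E-cadherin joins epithelial cells to each other, and its loss is a mark of the epithelial-to-mesenchymal transition, in which cells let go of their neighbours and migrate. The brain parenchyma holds myelin made by oligodendrocytes, astrocytes that supply neurons and clear transmitters, neurons, and microglia, the resident macrophages, each with well-known marker genes. By their best known roles, which were assigned by hand after the names were seen, 19 of the 100 genes belong to myeloid cells, 13 to astroglia, 3 to myelin and 19 to neurons. A further 10 act in stress responses, growth arrest or early response signalling, 8 in metabolism and transport, and 28 had another role or one that was not assigned.

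Total counts ranged from 9108575 to 15780531 per library, where the floor of 3 counts corresponds to 0.190 to 0.329 CPM. The 100 genes together held 0.0625% to 1.29% of the counts in E-cadHI libraries and 0.717% to 4.76% in E-cadLO libraries. Markers of epithelial tumor cells were high in every library, with a sum over 12 genes of 7856 to 10449 CPM in E-cadHI and 6883 to 15225 CPM in E-cadLO libraries. Cdh1, the gene of E-cadherin, had 109, 132, 93.6 and 103 CPM in the E-cadHI libraries of mice 57, 58, 67 and 70 and 85.04, 171, 87.6 and 53.7 CPM in the E-cadLO libraries, and these ranges overlap. The keratin gene Krt8 had 2306 to 3077 CPM in E-cadHI and 2142 to 4561 CPM in E-cadLO libraries. The E-cadLO library of mouse 57 stood apart in fibroblast genes: 10 of them summed to 2569 CPM there, to 20.9 to 41.8 CPM in the other E-cadLO libraries and to 7.51 to 20.8 CPM in the E-cadHI libraries.

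The smallest of the 4 ratios ranged from 2.69 for BC051019 at the top to 1.24 for Pygm, the last gene taken. Just inside this limit stood Vcam1, Spi1, Ank, Lrrc8c and Pygm, with smallest ratios of 1.25, 1.25, 1.24, 1.24 and 1.24, and of the 5 genes just outside it Nrsn1, Scrg1, Ak1 and Dnajc6 had 1.23, 1.23, 1.23 and 1.22. Genes of the brain stood on both sides of the limit: Nrsn1, a neurensin of neurons, had ratios of 1.79, 1.23, 2.97 and 2.02 in mice 57, 58, 67 and 70. By their symbols, 20 of the 146 genes left out would have stood at or above the limit.

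The 4 mice did not contribute equally to the choice. The median ratio of the 100 genes was 2.53, 1.54, 2.68 and 1.76 for mice 57, 58, 67 and 70, whereas over all 10716 protein-coding genes past the CPM minimum it was 0.28, -0.09, 0.02 and -0.04. The smallest ratio, which decided the choice, lay in mouse 58 for 56 genes, in mouse 70 for 31, in mouse 57 for 11 and in mouse 67 for 2. Of all genes past the minimum, 14.8% had a ratio above 0 in all 4 mice. In 37 of the 100 genes every E-cadLO library was above every E-cadHI library, a pattern that 3.32% of all genes past the minimum showed, and the other 63 were higher within each mouse only. Levels were mostly low: the mean E-cadLO level ranged from 6.32 to 5938 CPM with a median of 23.0 CPM, against a median of 3.48 CPM for the mean E-cadHI level. At least 1 E-cadHI library was at or under the floor of 3 counts for 31 genes, of which 17 had a library at 0, and no gene was at the floor in all 4.

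**Figure D1:**
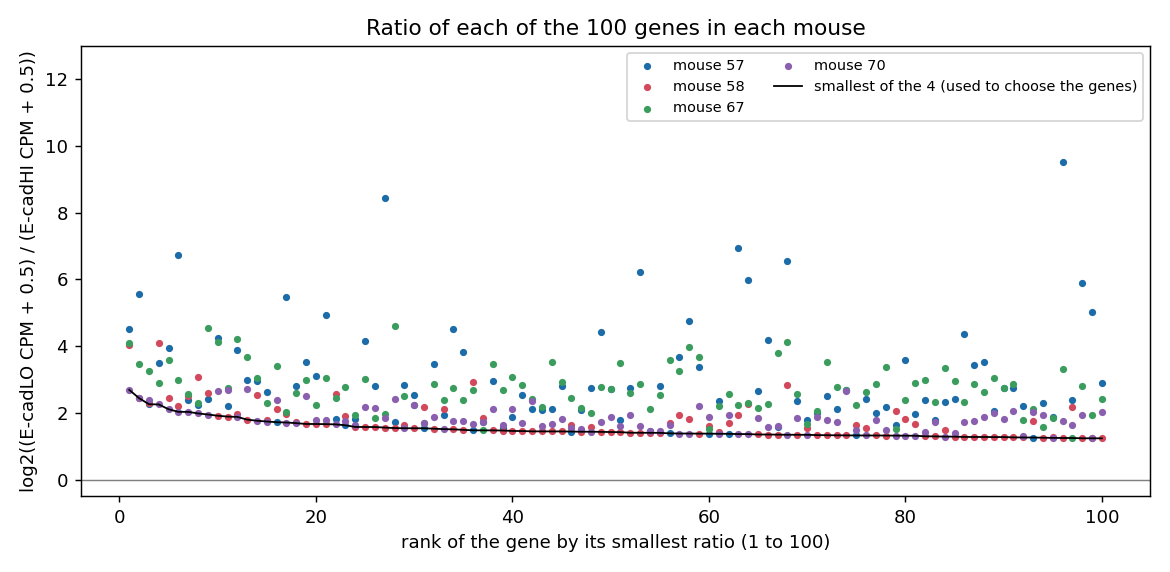
The log2 ratio of E-cadLO to E-cadHI (y axis) is plotted for each of the 100 genes, ordered by the smallest of their 4 ratios (x axis), with a colour for each mouse and a black line through the smallest ratio. The line falls from 2.69 to 1.24 and runs mostly through the points of mice 58 and 70, while 11 genes lie above 5 in mouse 57 and none does in another mouse.

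In edgeR's quasi-likelihood test without the mouse as a block, 0 of the 100 genes and 0 of 13598 genes tested (0.0%) were called higher at an adjusted p under 0.05. At an unadjusted p under 0.05, 50 of the 100 were higher, against 8.16% of all genes. When the mouse number entered as a replicate block, so that both populations were compared within each animal, edgeR called 44 of the 100 higher, against 0.728% of all genes. DESeq2 called 36 higher without the block, against 2.48% of all genes, and 97 with it, against 6.77%. The genes were chosen on this contrast, so these calls only describe them. With edgeR and the block, 21 of the 35 myelin, astroglial and neuronal genes and 6 of the 10 stress and growth arrest genes were called. With DESeq2 without the block, 2 of these 35 and 10 of these 10 were called. The difference between the groups was not tested. The 44 calls with the block became 88 without mouse 57, 25 without mouse 58, 0 without mouse 67 and 1 without mouse 70.

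Values that the choice did not use were obtained by choosing 100 genes on 3 mice and reading their ratio in the 4th. With mice 57, 58, 67 and 70 left out in turn, the ratio in the left-out mouse was above 0 for 80, 93, 96 and 96 of the 100 genes. Of all genes past the minimum, 60.1%, 39.5%, 51.0% and 45.2% were above 0 in the same mice. The median ratio in the left-out mouse was 1.72, 1.02, 2.52 and 1.41, against 0.25, -0.10, 0.01 and -0.06 for all genes, and at least a ratio of 1, or 2-fold, was reached by 70, 53, 89 and 74 of the 100 genes. Of all genes, 22.3%, 4.54%, 11.2% and 6.81% reached it in the same mice. These lists shared 63, 38, 82 and 61 genes with the 100 described here, and leaving out mouse 58 changed the list most. The genes named next were chosen after their values were seen. When mouse 57 was left out, the list took up Rgs1, Kcnj10, Fabp7 and Rtn1, of microglia, astroglia and neurons, which were below 0 in mouse 57. When mouse 58 was left out, it took up Gfap and Timp3, and Zeb1 and Apod were among the 7 genes below 0 in mouse 58. When mouse 70 was left out, the list took up the fibroblast genes Dcn and Postn, both below 0 in mouse 70.

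**Figure D2:**
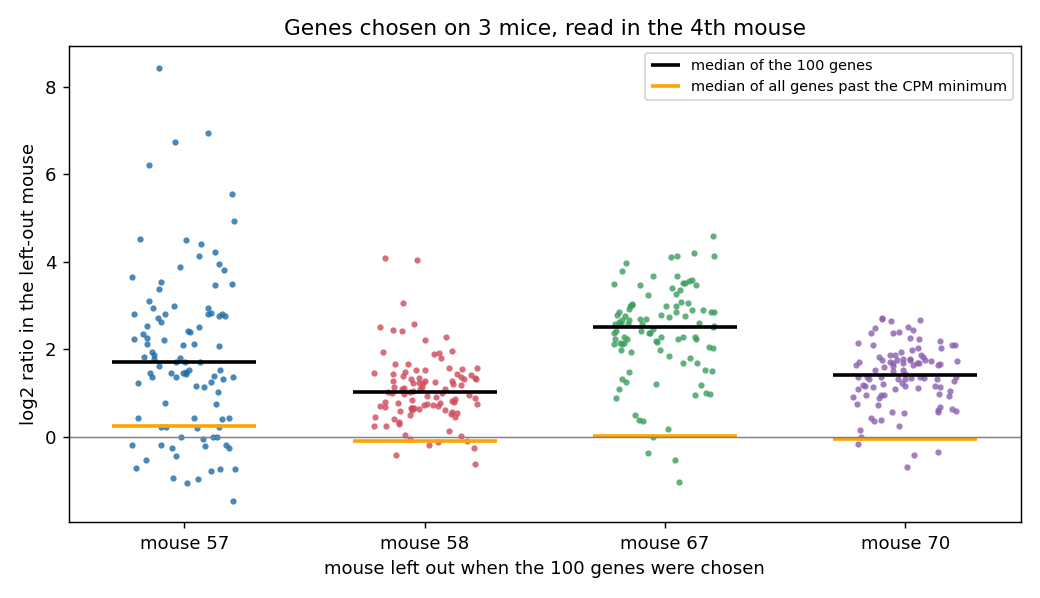
Each point is 1 of the 100 genes chosen on 3 mice, placed by its log2 ratio in the mouse that was left out (y axis; x axis, the mouse left out); black lines are medians of the 100 genes and orange lines medians of all genes past the CPM minimum. The black lines lie at 1.72, 1.02, 2.52 and 1.41, and the points of mouse 57 spread most widely.

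Of the counts of the 100 genes, the 3 myelin genes held the largest part of all groups in both populations of mice 58, 67 and 70, and the stress and growth arrest genes did so in mouse 57. Mbp encodes myelin basic protein, which compacts the myelin sheath. Its level was 149.9, 836, 350.2 and 4939.7 CPM in the E-cadHI libraries of mice 57, 58, 67 and 70 and 986, 2244, 2286 and 18237 CPM in the E-cadLO libraries. Mobp, a second structural gene of central myelin, had 62.6, 389.7, 237 and 2542 CPM in E-cadHI and 423, 937, 1736 and 10588 CPM in E-cadLO libraries. Bcas1, which marks oligodendrocytes that are forming myelin, had 6.50, 39.6, 21.2 and 257 CPM in E-cadHI and 46.7, 106, 131 and 994 CPM in E-cadLO libraries. For all 3 genes the E-cadHI library of mouse 70 was above the E-cadLO libraries of mice 57, 58 and 67, so that the groups overlapped, and the E-cadHI library of mouse 57 was the lowest of all 8. The ratios of the 3 genes were close to each other within a mouse and differed between mice: 2.71, 1.42, 2.71 and 1.88 for Mbp, 2.75, 1.26, 2.87 and 2.06 for Mobp and 2.75, 1.40, 2.60 and 1.95 for Bcas1 in mice 57, 58, 67 and 70. In edgeR with the replicate block the log2 fold change of Mbp was 2.14 ± 0.28 (standard error, adjusted p = 0.0311, n = 4 mice), and without the block it was 1.97 ± 1.24 (adjusted p = 0.466).

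The count of Mbp divided by that of Bcas1 was 23.1, 21.1, 16.5 and 19.2 in the E-cadHI libraries and 21.1, 21.2, 17.4 and 18.3 in the E-cadLO libraries. Within a mouse the E-cadLO quotient was 0.916 to 1.06 times the E-cadHI quotient. Both myelin genes thus moved in near proportion between the populations of a mouse. The other myelin markers did not all pass the limit. Of the 10 oligodendrocyte markers, 5 were higher in all 4 mice and none was lower in all 4, and edgeR with the block called the 2 that are members, Mbp and Mobp. Cnp, also on this list, had ratios of -1.98, -0.18, -0.35 and 0.69, and so was lower in E-cadLO cells in mice 57, 58 and 67. Mog, a glycoprotein on the outer face of myelin, had ratios of 1.86, 0.71, 1.82 and 2.22 and Mag, a glycoprotein next to the axon, of 2.60, -0.29, 1.60 and 2.23, and in mouse 58 both were smaller than the 1.42 of Mbp. Per kilobase of exon, the mean E-cadLO level of Mbp was 701 CPM and that of Mobp 499 CPM, against 24.1 CPM for Mog and 8.15 CPM for Mag. Mbp and Mobp were thus the most abundant myelin genes per length among those 4.

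**Figure D3:**
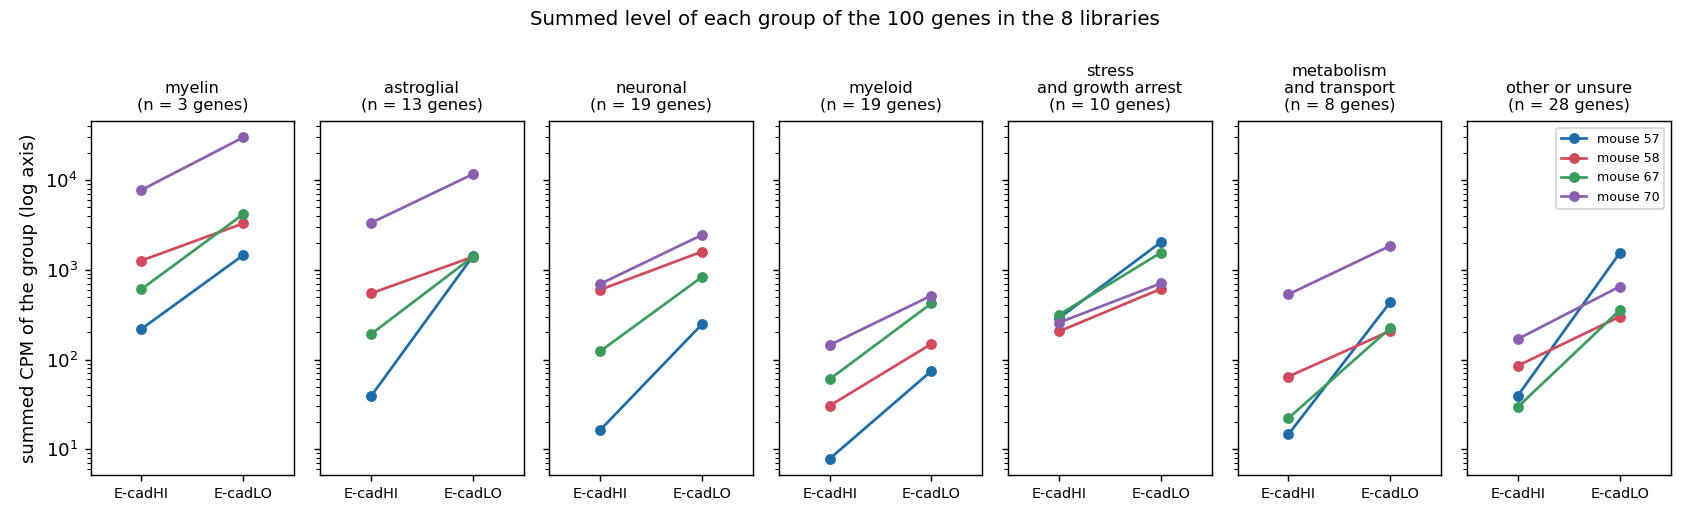
For each of the 7 groups of the 100 genes, the summed CPM (y axis, log scale) is drawn in the E-cadHI and E-cadLO library of each mouse, joined by a line. The lines of myelin, astroglial, neuronal and myeloid genes start far apart, with mouse 57 lowest and mouse 70 highest in E-cadHI cells, while those of stress and growth arrest genes start together at 206 to 315 CPM and end at 612 to 2026 CPM.

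The 13 astroglial genes had the same extremes over the mice. All 13 were lowest in the E-cadHI library of mouse 57 and highest in that of mouse 70, against 27.6% and 23.7% of all genes past the minimum, and the median fold between these libraries was 56.2. Apoe, the lipid carrier secreted by astrocytes and by activated microglia, had 18.1, 267, 118 and 1705 CPM in E-cadHI and 203, 648, 864 and 5773 CPM in E-cadLO libraries. Ndrg2, an abundant gene of astrocytes, had 7.63, 136, 29.97 and 731 CPM in E-cadHI and 32.1, 342, 221 and 2528 CPM in E-cadLO libraries. In both genes the E-cadHI library of mouse 70 stood above the E-cadLO libraries of mice 57, 58 and 67. Gpr37l1, an orphan receptor of astrocytes, was at 0 in the E-cadHI library of mouse 57 and had 11.9, 2.68 and 47.5 CPM in the others, against 3.79, 38.9, 14.5 and 165 CPM in E-cadLO libraries. Itih3, an inter-alpha-trypsin inhibitor chain that stabilizes extracellular matrix, had ratios of 2.80, 1.57, 1.84 and 2.15. These genes differed more between mice than between the populations of a mouse. Ttyh1 was among the 5 genes with the most even ratios, 1.79, 1.54, 1.68 and 1.34. Htra1, a secreted serine protease, went apart from this pattern in the E-cadLO library of mouse 57, with 1105, 31.1, 20.5 and 168 CPM in E-cadLO against 2.68, 10.2, 4.83 and 46.6 CPM in E-cadHI libraries. No astroglial gene had groups that did not overlap, against 3.32% of all genes past the minimum. With the block edgeR called 10 of the 13, against 0.728% of all genes tested.

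None of the 10 defining astrocyte markers entered the 100 genes, and Slc1a2 and Slc1a3 could not by their symbols. Their sum over 10 genes was 1151 to 3654 CPM in E-cadHI and 914 to 9531 CPM in E-cadLO libraries, with the highest value of each group in mouse 70. The E-cadLO sum was 0.794, 1.23, 1.58 and 2.61 times the E-cadHI sum in mice 57, 58, 67 and 70. Aldoc made up most of the sum in each E-cadHI library and had ratios of -2.71, -0.06, 0.19 and 1.05. Of the 10, 6 were higher in E-cadLO in all 4 mice and none was lower in all 4. Gfap, the intermediate filament of reactive astrocytes, had 2.01, 88.7, 28.2 and 325 CPM in E-cadHI and 10.7, 177, 218 and 1209 CPM in E-cadLO libraries, and its ratio of 0.99 in mouse 58 kept it out. Whether host astrocytes contributed to the ratios of the astroglial genes was not tested.

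Neuronal genes were lowest in the E-cadHI library of mouse 57 in 19 of 19 cases and highest in that of mouse 70 in 16. The other 3 were highest in mouse 58, where Camk2a, the calcium and calmodulin-dependent kinase of excitatory synapses, had its peak. Camk2a had 7.37, 309, 46.5 and 148 CPM in E-cadHI and 52.6, 747, 316 and 523 CPM in E-cadLO libraries. Kif5a, a motor of axonal transport, had 3.21, 115, 29.9 and 188 CPM in E-cadHI and 40.5, 332, 219 and 687 CPM in E-cadLO libraries. The mice were thus ordered differently for these neuronal genes: Camk2a was higher in mouse 58 than in mouse 70 in both populations, and Kif5a was higher in mouse 70. The quotient of Mbp to Camk2a varied between mice from 2.71 to 33.3 in E-cadHI and from 3.003 to 34.9 in E-cadLO libraries, while within a mouse the E-cadLO quotient was 0.922 to 1.11 times the E-cadHI quotient. For this pair of genes the quotient differed more between mice than between the 2 populations of a mouse. The quotient of Camk2a to Kif5a in E-cadLO was 0.567 times that in E-cadHI cells in mouse 57, and 0.839, 0.928 and 0.964 times in mice 58, 67 and 70.

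The other neuronal genes were lower in level. Eno2, the neuronal enolase, had 0.804, 2.996, 1.41 and 4.54 CPM in E-cadHI and 7.50, 11.5, 8.80 and 16.3 CPM in E-cadLO libraries, and was 1 of the 2 neuronal genes whose groups did not overlap. Pcsk1n, an inhibitor of a prohormone convertase, had 0.670, 17.8, 4.61 and 45.3 CPM in E-cadHI and 7.67, 59.8, 30.2 and 147 CPM in E-cadLO libraries. Slc38a1, a glutamine transporter, and Olfm1, an olfactomedin of neurons, reached means of 8.43 and 8.35 CPM in E-cadLO cells. Snap25, a SNARE protein of synaptic vesicle fusion, had 0.469, 23.8, 13.5 and 47.2 CPM in E-cadHI and 10.8, 58.4, 85.4 and 175 CPM in E-cadLO libraries. Mapt, the microtubule protein tau, had 0.536, 6.45, 1.86 and 20.7 CPM in E-cadHI and 6.09, 17.2, 9.98 and 76.4 CPM in E-cadLO libraries. In both genes the E-cadLO library of mouse 57 lay below the E-cadHI libraries of mice 58 and 70. For 10 of the 19 neuronal genes at least 1 E-cadHI library was at or under 3 counts. Of the 10 neuron markers, 7 were higher in all 4 mice, none was lower in all 4, and their sum was 4.02 to 94.7 CPM in E-cadHI and 39.3 to 358 CPM in E-cadLO libraries. Whether host neurons contributed to the ratios was not tested.

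**Figure D4:**
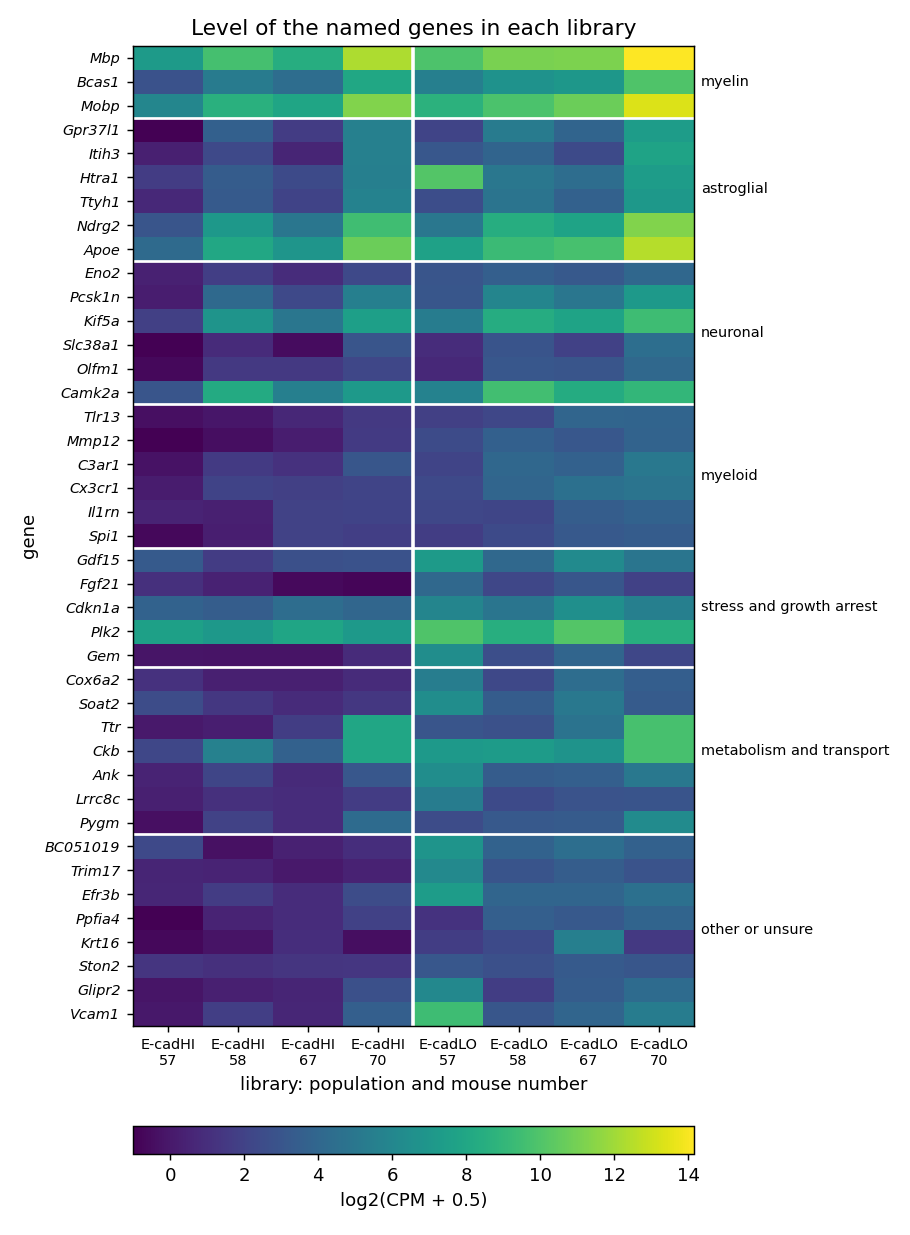
The colour gives log2(CPM + 0.5) of 41 of the 100 genes (rows, grouped by role) in the 4 E-cadHI and 4 E-cadLO libraries (columns). Within E-cadHI cells the myelin, astroglial and neuronal genes are darkest in mouse 57 and mostly brightest in mouse 70, and Htra1 and Vcam1 are bright in the E-cadLO library of mouse 57, with 1105 and 713 CPM.

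The 19 myeloid genes were low in every library, with means of 6.66 to 35.4 CPM in E-cadLO cells. They cover receptors, adaptors and the transcription factors that define the lineage. Tlr13, an endosomal Toll-like receptor for bacterial ribosomal RNA, had 0.268, 0.461, 1.12 and 2.36 CPM in E-cadHI and 3.18, 4.17, 14.9 and 14.3 CPM in E-cadLO libraries, and its groups did not overlap. Its ratios were 2.26, 2.28, 3.26 and 2.38, with mouse 67 apart from the other 3. Cx3cr1, the fractalkine receptor of microglia, had 0.603, 3.61, 3.12 and 3.87 CPM in E-cadHI and 4.59, 14.7, 23.7 and 27.5 CPM in E-cadLO libraries, again without overlap. C3ar1, the receptor for complement C3a, had 0.335, 2.46, 1.71 and 7.74 CPM in E-cadHI and 3.88, 16.4, 12.6 and 33.1 CPM in E-cadLO libraries, and its groups overlapped although its ratios of 2.39, 2.51, 2.57 and 2.03 were among the 5 most even. Mmp12, the elastase of macrophages, had 0, 0.230, 0.669 and 2.44 CPM in E-cadHI and 5.12, 11.97, 8.24 and 13.5 CPM in E-cadLO libraries, with E-cadHI libraries of mice 57 and 58 at or under 3 counts. In Mmp12 too no E-cadHI library reached the lowest E-cadLO library. Il1rn, the interleukin 1 receptor antagonist, had even ratios of 1.72, 1.85, 1.48 and 1.71. Siglech, a lectin of microglia, had 0, 0.999, 0.595 and 3.20 CPM in E-cadHI and 1.15, 6.04, 11.03 and 18.8 CPM in E-cadLO libraries. Aif1 (Iba1), a calcium-binding protein used to stain microglia, had 0.335, 1.38, 2.97 and 9.17 CPM in E-cadHI and 1.59, 5.38, 15.8 and 26.7 CPM in E-cadLO libraries. Fcer1g, the signalling chain of Fc receptors, had 0.0670, 2.46, 5.43 and 17.8 CPM in E-cadHI and 3.53, 8.78, 33.1 and 52.8 CPM in E-cadLO libraries. Siglech, Aif1 and Fcer1g overlapped between the groups, with the E-cadLO library of mouse 57 below the E-cadHI library of mouse 70. The highest E-cadHI library was that of mouse 70 for 18 of the 19 genes, and the highest E-cadLO library was that of mouse 70 for 14 and of mouse 67 for 5. In 7 of the 19 genes the groups did not overlap, against 3.32% of all genes past the minimum. With the block edgeR called 7, against 0.728% of all genes tested.

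The transcription factor Spi1 (PU.1), which sets up the myeloid lineage, had 0.134, 0.691, 3.42 and 2.94 CPM in E-cadHI and 2.82, 4.83, 8.80 and 10.2 CPM in E-cadLO libraries. Irf8, its partner in microglia and monocytes, had 0.737, 0.999, 4.31 and 5.13 CPM in E-cadHI and 3.88, 8.45, 25.5 and 17.2 CPM in E-cadLO libraries. In the signalling chain of Csf1r, Tyrobp and Trem2, on which microglia depend, 4 of 22 genes were members: Spi1, Irf8, Trem2 and Tyrobp. Over the 22 genes, 10 were higher in all 4 mice and 2 lower in all 4, and of 19 tested edgeR called 0 without the block and 1 with it, with none lower. Tyrobp, the adaptor that carries the signal, had 0.469, 2.92, 4.91 and 21.03 CPM in E-cadHI and 4.32, 9.11, 54.9 and 52.1 CPM in E-cadLO libraries. Trem2, its lipid-sensing receptor, had 0.201, 1.54, 1.41 and 4.88 CPM in E-cadHI and 4.94, 5.16, 20.7 and 22.7 CPM in E-cadLO libraries. The chain did not move as a whole: Csf1r had ratios of 2.21, 0.66, 2.67 and 1.52, the ligand Csf1 2.17, -0.09, 0.63 and 0.22, and Blnk and Plcg2 -0.73, -0.52, 0.06 and -0.35 and -0.24, -0.50, -1.37 and -0.27.

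Of 12 genes of disease-associated microglia, 3 were members (Trem2, Tyrobp and Apoe), 6 were higher in all 4 mice and 1 was lower in all 4. Spp1, osteopontin, which both these microglia and many tumor cells make, had 5034, 2708, 7712 and 5116 CPM in E-cadHI and 1324, 2870.5, 4073 and 3080.1 CPM in E-cadLO libraries. Of 19 genes of Toll-like receptor signalling, which include receptors and other genes such as Myd88, Tnf and Cd14, Tlr13 was the only member. Of these 19, 5 were higher in all 4 mice and 4 were lower in all 4. Cd14, a co-receptor for lipopolysaccharide, was lower in E-cadLO cells in all 4 mice, with ratios of -2.44, -0.20, -0.96 and -1.07. The microglia markers summed to 59.2 to 143 CPM in E-cadHI and 141 to 427 CPM in E-cadLO libraries, and 8 of 10 were higher in all 4 mice with none lower in all 4. The macrophage markers, 1 of which (Msr1) was a member, summed to 492 to 1138 CPM in E-cadHI and 259.7 to 789 CPM in E-cadLO libraries, most of it Cd14. Their sum in E-cadLO was 0.271, 0.904, 0.693 and 0.699 times that in E-cadHI cells in mice 57, 58, 67 and 70. Of the 10 macrophage markers, 5 were higher in all 4 mice, and Cd14 and Cd163 were lower in all 4. Cd163, a scavenger receptor of perivascular macrophages, had ratios of -1.31, -0.22, -0.12 and -0.33. With the block, edgeR called 1 of the 10 higher. The part of the microglia and macrophage markers in the ratios of the myeloid genes was not tested. The T and NK cell markers summed to 0.0670 to 3.11 CPM in E-cadHI and 1.54 to 30.4 CPM in E-cadLO libraries.

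The 10 genes of stress responses, growth arrest and early response signalling did not follow the order of the mice seen in the brain genes. In E-cadHI cells 3 of 10 were highest in mouse 70 and 1 was lowest in mouse 57, and the median of the quotient between these libraries was 0.979-fold, against 32.8-fold for the 35 myelin, astroglial and neuronal genes. In E-cadLO cells 7 were highest in mouse 57, 3 in mouse 67 and none in mouse 70. Gdf15, a cytokine of the TGF-beta family released by stressed cells, had 9.38, 2.69, 5.95 and 6.48 CPM in E-cadHI and 151, 16.7, 76.2 and 29.6 CPM in E-cadLO libraries. Every E-cadLO library was above every E-cadHI library, and the ratios were 3.94, 2.43, 3.57 and 2.11. Cdkn1a, the inhibitor p21 that halts the cell cycle, had 13.3, 10.4, 20.7 and 15.8 CPM in E-cadHI and 57.96, 29.1, 92.6 and 46.1 CPM in E-cadLO libraries. Plk2, a polo-like kinase induced by p53 and by growth factors, was the most abundant of the group, with 195, 136, 239.8 and 139 CPM in E-cadHI and 1005, 369, 1099 and 361 CPM in E-cadLO libraries. Both Cdkn1a, with ratios of 2.08, 1.43, 2.13 and 1.51, and Plk2, with 2.36, 1.44, 2.19 and 1.37, had larger ratios in mice 57 and 67 than in mice 58 and 70. In 9 of the 10 genes, all but Rgcc, the groups did not overlap, against 3.32% of all genes.

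Fgf21, a hormone secreted under mitochondrial and nutrient stress, had 1.67, 0.845, 0.149 and 0.0841 CPM in E-cadHI and 16.8, 4.17, 7.82 and 3.36 CPM in E-cadLO libraries, where the E-cadHI libraries of mice 67 and 70 were at or under 3 counts. Gem, a small GTPase that is induced early by stimuli, had 0.402, 0.384, 0.372 and 1.35 CPM in E-cadHI and 84.2, 5.82, 14.7 and 4.18 CPM in E-cadLO libraries, with a ratio of 6.55 in mouse 57 and of 1.34 in mouse 70. Gem was thus among the 5 genes with the widest spread. Rrad, a GTPase of the same family, had 0.201, 0.384, 2.16 and 0.926 CPM in E-cadHI and 43.8, 3.73, 12.5 and 3.17 CPM in E-cadLO libraries. Rgcc, a regulator of the cell cycle, had 22.97, 15.7, 18.1 and 41.6 CPM in E-cadHI and 423, 40.7, 89.3 and 124 CPM in E-cadLO libraries, and the E-cadLO library of mouse 58 lay below the E-cadHI library of mouse 70. Both were highest in the E-cadLO library of mouse 57. Nfkbie, an inhibitor of NF-kappaB, had 8.71, 5.30, 4.91 and 6.98 CPM in E-cadHI and 109, 19.9, 27.8 and 18.1 CPM in E-cadLO libraries. Plk3, a kinase related to Plk2, had 16.8, 12.1, 10.04 and 7.15 CPM in E-cadHI and 52.8, 51.8, 29.4 and 18.6 CPM in E-cadLO libraries, with its largest ratio in mouse 58. In both Nfkbie and Plk3 all 4 E-cadLO libraries were above the E-cadHI libraries. The counts of Mbp and Gdf15 did not move in proportion: their quotient was 15.99, 311, 58.9 and 762 in E-cadHI libraries and 6.51, 134, 30.0 and 616 in E-cadLO libraries, so that Gdf15 had the larger fold in all 4 mice. The 10 cell cycle markers were not among the 100. Their sum was 1599 to 2319 CPM in E-cadHI and 1478 to 1774 CPM in E-cadLO libraries, and 3 were lower in all 4 mice with none higher in all 4. In edgeR with the block, the log2 fold change was 3.10 ± 0.30 (adjusted p = 0.0239) for Gdf15 and 1.78 ± 0.19 (adjusted p = 0.0239) for Cdkn1a, where the error is the standard error and n = 4 mice. Of the 10 genes, 6 were called with edgeR and the block and 10 with DESeq2 in either form. Of all genes, 0.728% were called higher with edgeR and the block, and 2.48% and 6.77% with DESeq2 without and with it.

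Promoters from RefSeq (GRCm38.p6) were found for 68 of the 100 genes, and the 250 bases before the start site were searched on both strands for short motifs. Those printed here are from the stress and growth arrest genes, whose groups were most often apart, and from Irf8 of the myeloid genes. Sequences run 5′ to 3′ on the strand of the gene, and capitals mark the motif, on either strand.
Plk2, chr13:110394794-110395043, plus strand, capitals TGACGTC: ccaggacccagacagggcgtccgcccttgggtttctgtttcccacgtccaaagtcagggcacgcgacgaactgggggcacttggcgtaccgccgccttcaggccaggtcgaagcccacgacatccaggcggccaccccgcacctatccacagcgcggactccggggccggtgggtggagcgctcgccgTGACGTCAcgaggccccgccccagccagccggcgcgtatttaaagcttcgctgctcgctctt
Fgf21, chr7:45615491-45615740, minus strand, capitals CACGTG: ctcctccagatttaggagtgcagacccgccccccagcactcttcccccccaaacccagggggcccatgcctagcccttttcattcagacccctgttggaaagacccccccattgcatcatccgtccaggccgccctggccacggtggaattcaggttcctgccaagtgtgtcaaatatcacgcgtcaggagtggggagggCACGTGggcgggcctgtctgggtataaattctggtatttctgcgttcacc
Plk3, chr4:117133964-117134213, minus strand, capitals CAGGTG: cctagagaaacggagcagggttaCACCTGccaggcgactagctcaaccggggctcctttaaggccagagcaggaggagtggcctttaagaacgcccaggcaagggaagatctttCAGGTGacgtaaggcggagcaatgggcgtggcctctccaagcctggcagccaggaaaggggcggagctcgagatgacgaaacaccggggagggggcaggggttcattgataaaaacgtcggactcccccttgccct
Nfkbie, chr17:45555450-45555699, plus strand, capitals TGACTCA: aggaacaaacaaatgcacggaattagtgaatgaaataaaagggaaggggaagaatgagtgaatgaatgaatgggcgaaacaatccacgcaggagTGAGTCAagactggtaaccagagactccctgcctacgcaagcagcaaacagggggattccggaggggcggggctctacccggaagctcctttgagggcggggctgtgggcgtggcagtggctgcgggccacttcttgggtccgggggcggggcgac
Irf8, chr8:120736108-120736357, plus strand, capitals TATAAA: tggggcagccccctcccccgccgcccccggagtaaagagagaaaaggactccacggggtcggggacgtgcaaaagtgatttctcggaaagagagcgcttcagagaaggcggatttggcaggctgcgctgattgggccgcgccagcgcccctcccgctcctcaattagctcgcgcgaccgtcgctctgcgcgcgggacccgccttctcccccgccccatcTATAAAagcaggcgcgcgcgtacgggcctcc
The CRE letters TGACGTC, bound by CREB and ATF factors, stand on both strands of 1 overlapping site of the Plk2 promoter, 55 bases before the start, and were found in 1 of the 68 promoters (1.47%) and 4.15% of all 15223 promoters searched. The E-box CACGTG of Fgf21 lies 45 bases before the start. It was found in 5 of 68 promoters (7.35%) and in 8.11% of all. The AP-1 letters TGACTCA were found in 6 of 68 (8.82%) and in 4.78% of all. Among promoters of genes past the CPM minimum the shares were 5.74% for TGACGTC, 10.2% for CACGTG and 3.88% for TGACTCA. The letters TATAAA, marked in Irf8, were found in 10 of 68 (14.7%), in 12.2% of all and in 7.75% of those of genes past the minimum.

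The letters CAGGTG, an E-box that the EMT repressors ZEB1 and SNAI1 can bind, were found in 22 of the 68 promoters (32.4%). They were found in 19.6% of all promoters and in 18.4% of the 8356 promoters found for genes past the CPM minimum. By group the share was 3 of 15 myeloid, 5 of 11 astroglial, 3 of 10 neuronal and 4 of 8 stress and growth arrest promoters. The PU.1 letters AGGAAGT were found in 1 of the 15 myeloid promoters, that of Mmp12, in 8.69% of all and in 8.41% of those of genes past the minimum. The CCAAT letters were found in 15 of 68 promoters (22.1%), against 39.3% of all and 40.9% of those of genes past the minimum. The letters GGGCGG, the GC box, were found in 36 of 68 (52.9%), against 50% of all and 65.8% of those of genes past the minimum. None of these shares was tested, and a match of letters is not a bound site.

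Among the 8 genes of metabolism and transport, Ckb and Ttr followed the brain genes and Soat2 and Cox6a2 did not. Ckb, the brain form of creatine kinase, had 4.09, 49.6, 12.6 and 249 CPM in E-cadHI and 139.7, 158, 108 and 856 CPM in E-cadLO libraries. Ttr, transthyretin, a carrier of thyroid hormone made by choroid plexus and liver, had 0.536, 0.691, 2.83 and 249 CPM in E-cadHI and 7.50, 6.37, 26.8 and 846 CPM in E-cadLO libraries, so that both libraries of mouse 70 stood far above the rest. Its mean E-cadLO level of 222 CPM with an SD of 416 CPM (n = 4) rests on that mouse. Kl, another marker on the choroid plexus and ependymal list, was highest in the E-cadLO library of mouse 70 too, with 6.21 CPM. Tmem212 of this list was at or under 3 counts in all 8 libraries. Folr1 was abundant in every library, with 63.5 to 400.3 CPM, and was lower in E-cadLO cells in all 4 mice. Its ratios were -2.65, -0.37, -0.78 and -0.91 in mice 57, 58, 67 and 70. Of the hepatocyte markers, Alb had at most 5 counts.

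Soat2, which esterifies cholesterol, had 5.29, 2.23, 1.34 and 2.27 CPM in E-cadHI and 84.7, 10.2, 33.6 and 9.70 CPM in E-cadLO libraries. Cox6a2, the heart and muscle form of a subunit of cytochrome c oxidase, had 1.74, 0.768, 0.744 and 1.35 CPM in E-cadHI and 41.6, 4.28, 21.3 and 11.03 CPM in E-cadLO libraries. In both genes every E-cadLO library was above every E-cadHI library, mice 57 and 67 were the highest of the E-cadLO libraries, and edgeR with the block called them (log2 fold change 3.18 ± 0.46 and 3.71 ± 0.47, adjusted p = 0.0330 and 0.0270). Pygm, the muscle glycogen phosphorylase and the last gene taken, had ratios of 2.89, 1.24, 2.42 and 2.01. Ank, a pyrophosphate exporter, and Lrrc8c, a subunit of the volume-regulated anion channel, had ratios of 5.89 and 5.03 in mouse 57 and at most 2.79 and 1.93 in the other mice.

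The first gene of the ranking, BC051019 (chromosome 7, 109712181 to 109723850), has no role that was assigned. It had 4.49, 0.307, 0.818 and 1.51 CPM in E-cadHI and 113, 12.8, 22.2 and 12.5 CPM in E-cadLO libraries, with ratios of 4.51, 4.05, 4.11 and 2.69. Trim17 (chromosome 11, 58954685 to 58973098), a ubiquitin ligase, had 1.005, 0.922, 0.521 and 0.841 CPM in E-cadHI and 70.6, 7.25, 10.8 and 6.78 CPM in E-cadLO libraries. Both genes were below 5 CPM in every E-cadHI library and above it in every E-cadLO library. Krt16 (chromosome 11, 100246091 to 100248902), a keratin that epithelia induce when wounded or stressed, was highest in mouse 67, with 0.134, 0.384, 1.49 and 0.252 CPM in E-cadHI and 2.91, 4.83, 46 and 2.41 CPM in E-cadLO libraries. Its groups did not overlap. Most of its E-cadLO mean came from 1 library. Ppfia4, a liprin of presynaptic sites, had 0, 0.922, 1.41 and 3.28 CPM in E-cadHI and 1.85, 11.4, 8.87 and 14.4 CPM in E-cadLO libraries. Efr3b, which anchors a lipid kinase at the plasma membrane, had 1.07, 2.77, 1.41 and 5.30 CPM in E-cadHI and 167, 14.6, 14.8 and 23.2 CPM in E-cadLO libraries, without overlap. Efr3b was again highest in mouse 57. Ston2, an endocytic adaptor, had the most even ratios of all: 1.81, 1.58, 1.94 and 1.64, from 2.01, 1.69, 2.01 and 2.19 CPM in E-cadHI and 8.29, 6.04, 9.14 and 7.86 CPM in E-cadLO libraries. Nr1d1, the circadian repressor Rev-erb alpha, had 9.84, 7.99, 2.60 and 4.71 CPM in E-cadHI and 59.3, 24.2, 14.1 and 23.95 CPM in E-cadLO libraries, without overlap. Of the 28 genes with another or no assigned role, 14 had groups that did not overlap, against 3.32% of all genes past the minimum. Among the 28, 12 were highest in the E-cadLO library of mouse 57 and 12 in that of mouse 70. In edgeR with the block the log2 fold change was 4.30 ± 0.39 for BC051019 (adjusted p = 0.0239), 4.09 ± 0.55 for Trim17 (adjusted p = 0.0311) and 4.10 ± 0.46 for Krt16 (adjusted p = 0.0239), with standard errors over n = 4 mice.

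In mouse 57, 11 of the 100 genes had a ratio above 5, or 32-fold, and in the other mice none had. Among them were Trim17, Efr3b, Fam189a1, Htra1, Glipr2, Rrad, Gem, Vcam1, Ank and Lrrc8c. Vcam1, an adhesion molecule of endothelium and stroma, had 0.469, 2.996, 1.04 and 11.6 CPM in E-cadHI and 713, 7.79, 14.9 and 40.5 CPM in E-cadLO libraries, with ratios of 9.52, 1.25, 3.32 and 1.76. Glipr2 had 0.402, 0.768, 0.967 and 5.97 CPM in E-cadHI and 66.95, 2.85, 10.1 and 19.3 CPM in E-cadLO libraries. For Vcam1, Htra1 and Glipr2 the E-cadLO library of mouse 57 was the highest of all 8. The same library held the fibroblast markers: Col1a1 had 590.2 CPM there and at most 7.73 CPM elsewhere, Postn 564 and at most 15.5 CPM, and Dpt 134 CPM and 0 in the other 7 libraries. Mesenchymal genes summed to 4344 CPM in it and to 55.1 to 1295 CPM in the others. Vim, vimentin, had 42.0, 47.9, 72.2 and 67.0 CPM in E-cadHI and 309.9, 61.9, 42.2 and 59.4 CPM in E-cadLO libraries. Its ratios were 2.87, 0.37, -0.77 and -0.17 in mice 57, 58, 67 and 70. Of the 14 mesenchymal genes, 4 were higher in all 4 mice and none was a member, which Cdh2 could not be by its symbol. The part of fibroblast or mesenchymal transcripts in the ratios of mouse 57 was not tested.

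By position, 16 of the 100 genes lay on chromosome 7, against 7.40% of all genes past the minimum, and 10 on chromosome 2, against 7.92%. Pairs within 250 kb of each other were few. Apba2 and Fam189a1 on chromosome 7 lie 2213 bases apart, and the metallothionein genes Mt3 and Mt2 on chromosome 8 lie 18518 bases apart with no protein-coding gene between them. Mt3, the brain form, went with the astroglial genes, with 0.335, 6.38, 2.53 and 46.4 CPM in E-cadHI and 1.76, 20.7, 16.1 and 136 CPM in E-cadLO libraries. Mt2, which metals and glucocorticoids induce, had 20.6, 22.2, 12.9 and 38.3 CPM in E-cadHI and 81.9, 71.6, 100.2 and 95.9 CPM in E-cadLO libraries. These neighbours thus differed in their order over mice: Mt3 was far lower in mouse 57 than in mouse 70 in both populations, while the 4 E-cadLO libraries lay close together for Mt2. The median exon length was 3.69 kb, against 4.62 kb for all genes past the minimum. Of the 100 genes, 46 overlap another annotated gene, and the share among all genes past the minimum is not given here. Whether the counts used strand is not given in the sources used here, so that reads in such overlaps cannot be assigned.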

How the data were processed

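Per the labels and the methods of the study, mRNA of 8 sorted populations was sequenced in single reads, mapped to GRCm38 with HISAT2 2.1.0 and counted per gene; HTSeq is named in the submitters' processing notes and another counter in the study's methods, and neither gives the strand setting or the treatment of reads with several matches. The deposited values are raw counts per gene, with no normalization by the authors. Of 32259 table entries, 365 without a gene identifier, including 0.0636% to 0.0954% of counts, were left out of the tests.

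CPM was computed over each library's column sum. The 100 genes and all gene lists and role groups were chosen with earlier results of these data known. Ratios used a pseudocount of 0.5 CPM. The contrast was fitted on all genes with edgeR 4.0.16 (quasi-likelihood, TMM sizes, filterByExpr) in R 4.3.3, at a Benjamini-Hochberg adjusted p of 0.05. Alternatives were DESeq2 1.42.0 with its default filters, DESeq2's size factors, other count filters, the mouse as a replicate block, other pseudocounts and CPM minimums, and leaving out each mouse. Both populations of a number came from the same animal. Deviations from the group means correlated at 0.381, 0.248, 0.272 and 0.692 in the 4 same-mouse pairs. No correlation was computed between libraries of different mice, so these values do not test the pairing, which rests on the mouse numbers in the labels.

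On simulated data with 200 of 13598 genes changed 4-fold in the contrast of E-cadLO against E-cadHI, edgeR recovered 75.5%, or 73.5% with the block, and 4.43% and 5.16% of its calls were false. DESeq2 recovered 82.5% and 83.0%, with 19.12% and 21.33% false. Apart from random spread, a gene had the same simulated mean in all libraries of a population. Shifts shared by both libraries of a mouse were thus absent, so these shares need not hold for the real data.

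Genes were named by rule: the 10 with the highest smallest ratio, the 5 on either side of the limit, the 10 highest in E-cadLO, the 5 widest and 5 narrowest ranges of ratios, and up to 4 of each role group, with list markers as checks. Siglech, Fam189a1, Irf8, Fcer1g, Nr1d1, Trem2, Mt3, Apba2, Rrad, Mapt, Rgcc, Aif1, Plk3, Nfkbie, Mt2, Tyrobp and Snap25 were named after their values were seen. Some genes that the rule takes are not reported here. The standard errors come from the edgeR fits and include the spread between samples, while floors cover counting error only.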

Additional observations from a re-analysis of the deposited data

Results flagged for a closer look

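In 10 of 69 sets of 4 values, 1 mouse stood farther from the other 3 than Dixon's 95% limit allows. Chance gives about 1 in 20 only for separate sets of normally distributed values, which was not shown here. Of the ratios, mouse 67 stood apart for Tlr13, with a log2 ratio of 3.26 against 2.26 to 2.38 in the other mice, and mouse 57 for Htra1, with 8.44 against 1.56 to 1.98. The other 8 sets are summed levels in which mouse 70 stood highest. These sums were compared in CPM and not as logs, so their flags depend on that scale and cannot be set against the 1 in 20. In its E-cadHI library the astroglial genes summed to 3318 CPM, the myelin genes to 7739 CPM and the genes of metabolism and transport to 533 CPM. In its E-cadLO library the 100 genes summed to 47556 CPM, the astroglial genes to 11574.5 CPM, the myelin genes to 29819 CPM, the genes of metabolism and transport to 1848 CPM, and the 35 astroglial, myelin and neuronal genes to 43839 CPM. In the E-cadHI and E-cadLO libraries of mouse 70, Ttr held 249 and 846 CPM and Ckb 249 and 856 CPM of the metabolism and transport sums. These sums share a library and overlap in genes, so they are not separate observations.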

How the results depend on the processing

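Without the block, edgeR called 0 genes higher and 0 lower of 13598, with 1109 and 790 at an unadjusted p under 0.05, and the lowest and highest counts on leaving out each mouse were 0 and 0 for all genes, in either direction, and for the 100. DESeq2's size factors in edgeR also gave 0. With no filter except genes with no counts, edgeR called 23 genes higher, 10 of them among the 100, and with at least 10 counts in every library 3, when 39 of the 100 could be tested. DESeq2 called 376 higher and 40 lower, with 36 of the 100. With the replicate block, edgeR called 99 higher and 0 lower (997 at an unadjusted p under 0.05), with 44 of the 100, and DESeq2 1010 higher and 201 lower, with 97. The cause of these differences was not tested. In fits with the block without each mouse, added after seeing the data, edgeR called 0 to 425 genes and 0 to 88 of the 100. For the 43 genes that the naming rule takes, 404 values under alternatives held no reversed direction: 314 stayed on the same side of the threshold and 90 passed it. The 43 genes were chosen for a high ratio in every mouse, so the lack of reversals follows from the choice.

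Another library size, pseudocount, CPM minimum or no symbols left out found 80 to 91 of the 100 genes again, and ranking by the mean of the 4 ratios found 42. Leaving out a mouse found 38 to 82. The median ratio was 1.99 to 2.37 on leaving out a mouse, against 2.18 with all, and that of mouse 57 was 3.33 instead of 2.53 with a pseudocount of 0.1. Depth limits the low genes: 72 of the 100 had a mean below 50 CPM in E-cadLO cells.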

Other observations

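Lists of other cell types that the report does not describe gave the following sums. The 10 neutrophil genes summed to 12849 to 18610.0 CPM in E-cadHI and 3127 to 11895 CPM in E-cadLO libraries, nearly all from Ltf, lactoferrin, which mammary epithelium also makes and which was lower in E-cadLO cells in all 4 mice. Ly6g, which defines neutrophils, was at most 0.353 CPM. The 8 mural cell genes summed to 25.2 to 87.1 CPM in E-cadHI and 27.9 to 210.4 CPM in E-cadLO libraries. Of these, Notch3 and Abcc9 were lower in E-cadLO in all 4 mice, with ratios of -0.65, -0.10, -0.30 and -0.83 for Notch3 and -1.37, -1.11, -0.12 and -0.50 for Abcc9. Pdgfrb, the platelet-derived growth factor receptor of pericytes and fibroblasts, was higher in all 4 and had 174 CPM in the E-cadLO library of mouse 57 and at most 5.86 CPM in the other 7 libraries. The 10 endothelial genes summed to 41.1 to 78.0 CPM in E-cadHI and 74.5 to 103 CPM in E-cadLO libraries, of which Flt1 made up most. Ighm, the immunoglobulin heavy chain of B cells, was higher in E-cadLO in all 4 mice, with ratios of 2.03, 1.73, 3.28 and 1.72, whereas Cd79a and Ms4a1 were at most 0.110 CPM in every library.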
